A study of Mus musculus with 19 samples.

Results

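The genes described here are 4 Wnt ligands (Wnt4, Wnt5a, Wnt6 and Wnt10b), 5 secreted Wnt antagonists (Frzb, Sfrp1, Sfrp2, Dkk3 and Wif1) and Rspo1. The last is an R-spondin, a secreted protein that strengthens Wnt signals, and so is neither a ligand of the Wnt family nor an antagonist. Their values come from the probe sets annotated to 1 of these genes alone, which were 21 probe sets for 10 genes, of 34945 single-gene probe sets for 18193 genes on the array. The genes were chosen by name, and Frzb was selected on its raised signal in the double knockout against controls 1 to 4 in an earlier look at these arrays, so its difference there is given as a description without a test.

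RNA from whole mouse ovaries was measured on 19 Affymetrix Mouse Genome 430 2.0 arrays. All the mice were 2 months old, and the labels describe the gene deletion as restricted to the ovary. The double knockout (DKO, 3 arrays) lacked Dhh and Ihh, the genes of the secreted ligands Desert and Indian hedgehog, Dhh KO (4 arrays) lacked Dhh, and Ihh KO (4 arrays) lacked Ihh. The 8 control arrays came from mice labelled Ihh_Dhh_dhet, heterozygous for both genes, so every group carried at least some loss of a Hedgehog gene. The Cre driver or promoter behind the deletion, and whether each array was 1 animal, are unstated in the labels, so p-values measure only the spread between these samples. DKO was set against controls 1 to 4 and each single knockout against controls 5 to 8, the controls hybridized with it.

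Wnt proteins are secreted ligands of Frizzled receptors. With the Lrp5 or Lrp6 co-receptor they stabilise beta-catenin, and through receptors such as Ror2 and Ryk some of them, Wnt5a above all, act without it. The secreted Frizzled-related proteins (Sfrp1, Sfrp2 and Frzb, also called Sfrp3) and Wif1 bind Wnt ligands outside the cell, while R-spondins act through Lgr receptors to keep Frizzled receptors at the cell surface. In the embryonic gonad, Wnt4 and Rspo1 promote the female fate.

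The promoter sequence of Frzb is shown because Frzb had the largest difference among these genes in DKO, and because a search of 7 available promoters (Wnt4, Wnt6, Wnt10b, Frzb, Sfrp2, Wif1 and Rspo1) for the core letters bound by factors of Wnt and Hedgehog signalling found a match in it alone. The 250 bases before the start of Frzb lie at chr2:80447397-80447646 on the minus strand of GRCm38.p6, from RefSeq. The capitals mark TCAAAG, the reverse complement of CTTTGA, the core letters recognised by TCF and LEF factors, starting at base 156, 95 bases before the start of the gene.
Frzb promoter: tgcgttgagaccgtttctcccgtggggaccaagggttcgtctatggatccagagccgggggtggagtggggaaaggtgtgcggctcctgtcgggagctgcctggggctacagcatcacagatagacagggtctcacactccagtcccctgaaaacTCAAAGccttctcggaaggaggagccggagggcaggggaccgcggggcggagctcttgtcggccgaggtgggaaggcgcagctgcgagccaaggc
Of 32851 mouse promoters of the same length, 13.8% held CTTTGA on either strand. CCACCCA, core letters recognised by the GLI factors of Hedgehog signalling, was in none of the 7 promoters on either strand and in 8.11% of all promoters. Promoter sequences of Wnt5a, Sfrp1 and Dkk3 were not used here.

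Signals are deposited MAS5 intensities, scaled to a trimmed mean of 500 on every array. Median signals per array ran from 101 to 159.8. The hybridization controls separated the arrays into a first set, DKO with controls 1 to 4, and a second set with the other arrays: the BioC spike had a 3' to 5' signal ratio of 0.987 to 1.06 on arrays of the first set, but 0.685 to 0.781 on those of the second. For Gapdh, whose 3' to 5' ratio reflects RNA quality, it was 1.68 to 1.78 in DKO and 1.69 to 1.80 in controls 1 to 4, and it was 2.08 to 2.79 in Dhh KO, 1.90 to 2.37 in Ihh KO and 1.89 to 2.01 in controls 5 to 8. Each control of the first set deviated from its group mean together with 1 control of the second set (1 with 5, 2 with 6, 3 with 7 and 4 with 8, r from 0.538 to 0.771 across genes, which are not independent), and the labels do not say whether these pairs share a source. Dhh, the deleted gene, read 3.85 to 14.2 in DKO against 606 to 1371 on controls 1 to 4, and 5.14 to 25.4 in Dhh KO against 621 to 1085 on controls 5 to 8. On the array labelled Ihh KO 4 Dhh read 2.96, against 527 to 709 on Ihh KO 1 to 3, which goes against its label, and Ihh read 108 there against 12.5 to 43.5 on Ihh KO 1 to 3. Results for Ihh KO are therefore given with and without that array. In the tests all groups share 1 estimate of the spread, so that array also enters the standard errors for DKO and Dhh KO. The Hedgehog target genes Ptch1 (2105 to 2381 in DKO, 3763 to 4048 on controls 1 to 4), Hhip (11.1 to 16.2 in DKO, 123 to 284 on controls 1 to 4) and Gli1 (3.91 to 13.3 in DKO, 93.2 to 157 on controls 1 to 4) did not overlap between these groups. Granulosa and oocyte markers, which define the ovary, were present on every array, with summed signals of 29596 to 48949 over 8 granulosa genes and 4687 to 16075 over 8 oocyte genes.

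In DKO, Wnt5a was below controls 1 to 4 on every array, and Frzb was above them on every array on the probe set used, though not on its other one. Wnt6 was below these controls on every array too but did not pass the test, and Rspo1 averaged higher with groups that overlapped. Differences were taken on log2(signal + 7.02) for 1 probe set per gene, that of the highest mean, and called at an adjusted p under 0.05 (limma, Benjamini-Hochberg over 12379 genes). A total of 9 of the 10 genes passed the filter on low signals, and Wif1 did not. Of all genes tested, 3.02% were called in DKO (194 higher and 180 lower). Apart from Frzb, 1 of the other 8 tested genes was called, Wnt5a, which was lower. The median difference of these 8 genes was -0.63 in DKO, against 0.02 for all genes tested.

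Wnt5a, a ligand known mainly for signalling without beta-catenin, read 1136, 891 and 392 in DKO. Controls 1 to 4 read 1785, 2031, 2175 and 1649, so the groups did not overlap, and DKO 3 was the lowest of all arrays. Wnt5a averaged 806 ± 379 (SD, n = 3) in DKO and 1910.2 ± 237 (SD, n = 4) in controls 1 to 4. The log2 difference was -1.36 (limma, SE 0.29, adjusted p = 0.0143), which is 2.57-fold lower. Wnt5a has 4 probe sets, and each of them was lower on every DKO array than on any of controls 1 to 4. With every probe set tested on its own, which called 2.15% of 23341 probe sets, the differences of the 3 that passed the filter were -1.36 (adjusted p = 0.0167), -1.39 (adjusted p = 0.0141) and -1.30 (adjusted p = 0.0734). The fourth read 17.2 to 28.6 in DKO and 33.5 to 61.8 in controls 1 to 4. The call rested on DKO 3: without it the difference was -0.91 (adjusted p = 0.0873), and in a fit of the first set alone the adjusted p was 0.0964.

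**Figure D1:**
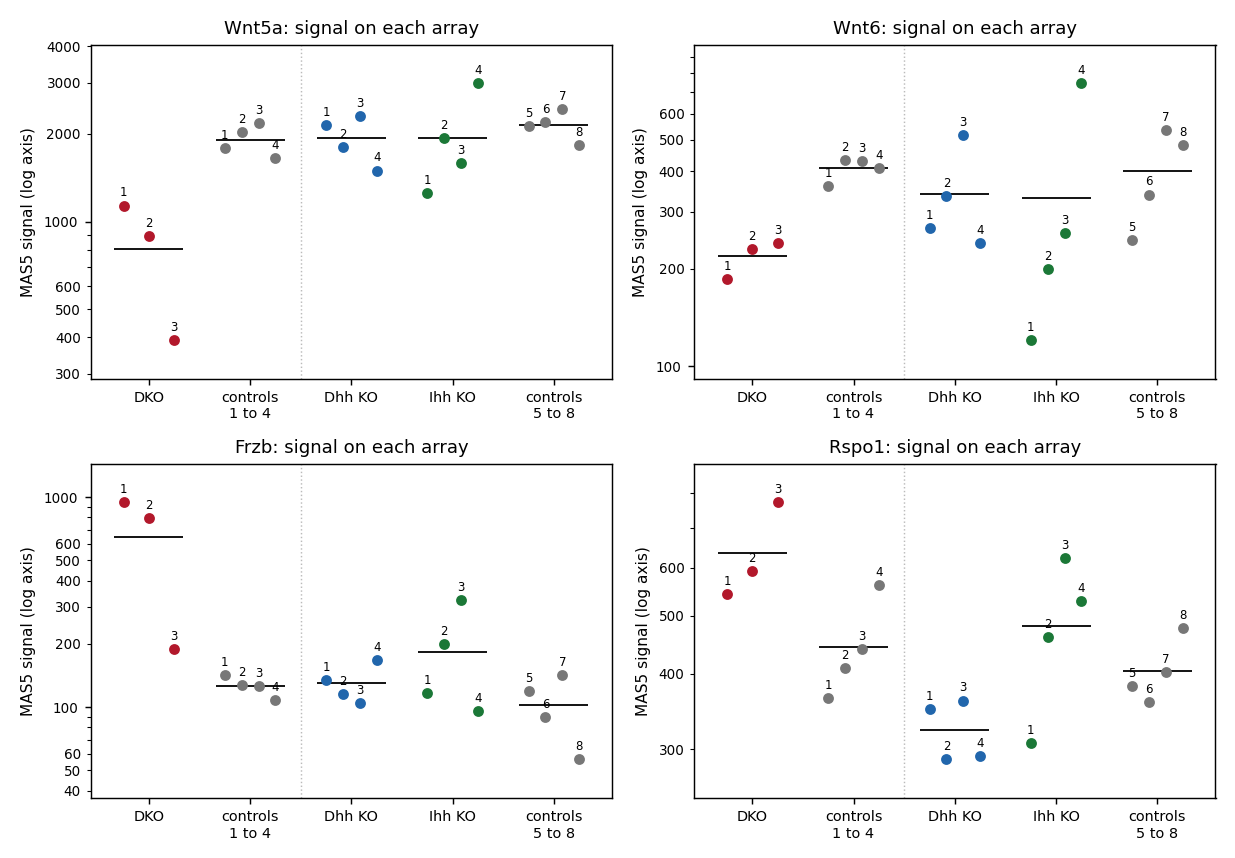
Signal of Wnt5a, Wnt6, Frzb and Rspo1 on each of the 19 arrays, on a log axis; each point is an array with its number, horizontal lines are group means, and the dotted line parts the hybridization sets. All DKO arrays lie under controls 1 to 4 for Wnt5a and Wnt6 and above them for Frzb, while Ihh KO 4 has the highest Wnt5a (2988) and Wnt6 (747) signals.

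Wnt6, a ligand expressed in many epithelia, read 186, 230.3 and 240.1 in DKO. On controls 1 to 4 it read 358, 432, 431 and 409.5, and the groups did not overlap. The difference was -0.88 (SE 0.41) and was not called (limma adjusted p = 0.303). In a fit of the first set alone, where the spread comes from these 7 arrays, the same difference passed the threshold (adjusted p = 0.0492). Its other probe set read 238, 298 and 321 in DKO, and 347, 426, 459.9 and 449 in controls 1 to 4, also without overlap, with a difference of -0.55 (adjusted p = 0.398).

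The other ligands varied more between arrays of 1 group than between groups. Wnt4, which promotes the female fate of the gonad, read 939, 1287 and 1428 in DKO, and 1594, 3129.8, 1379.7 and 868 in controls 1 to 4. These ranges overlapped, and the difference was -0.38 (SE 0.35, limma adjusted p = 0.659). Its other probe set also overlapped, with 788 to 971 in DKO and 650.2 to 1229 in controls 1 to 4. Wnt10b read 27.5, 92.2 and 2.68 in DKO. It read 133, 342, 182 and 2.60 in controls 1 to 4, so that DKO 3 and control 4 were both near the bottom of the scale. The difference of Wnt10b was -1.59 (SE 1.19, adjusted p = 0.557).

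Among the antagonists, Frzb stood apart from the rest. Frzb binds Wnt ligands through a domain like that of the Frizzled receptors. It read 944, 794 and 189.9 in DKO. Controls 1 to 4 read 142, 127, 126 and 109, and all 3 DKO arrays lay above them, with DKO 3 much closer to the controls than DKO 1 and DKO 2. Frzb averaged 643 ± 399 (SD, n = 3) in DKO and 126 ± 13.7 (SD, n = 4) in controls 1 to 4, a log2 difference of 2.00 (SE 0.45), or 4.01-fold higher. Its second probe set read 696, 431 and 109.5 in DKO, and 76.3, 80.7, 110.0 and 69.1 in controls 1 to 4. There DKO 3 fell within the controls, and the difference was 1.88 (SE 0.46). The size of the Frzb difference depended on single arrays, with 1.58 without DKO 1, 1.71 without DKO 2 and 2.72 without DKO 3.

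**Figure D2:**
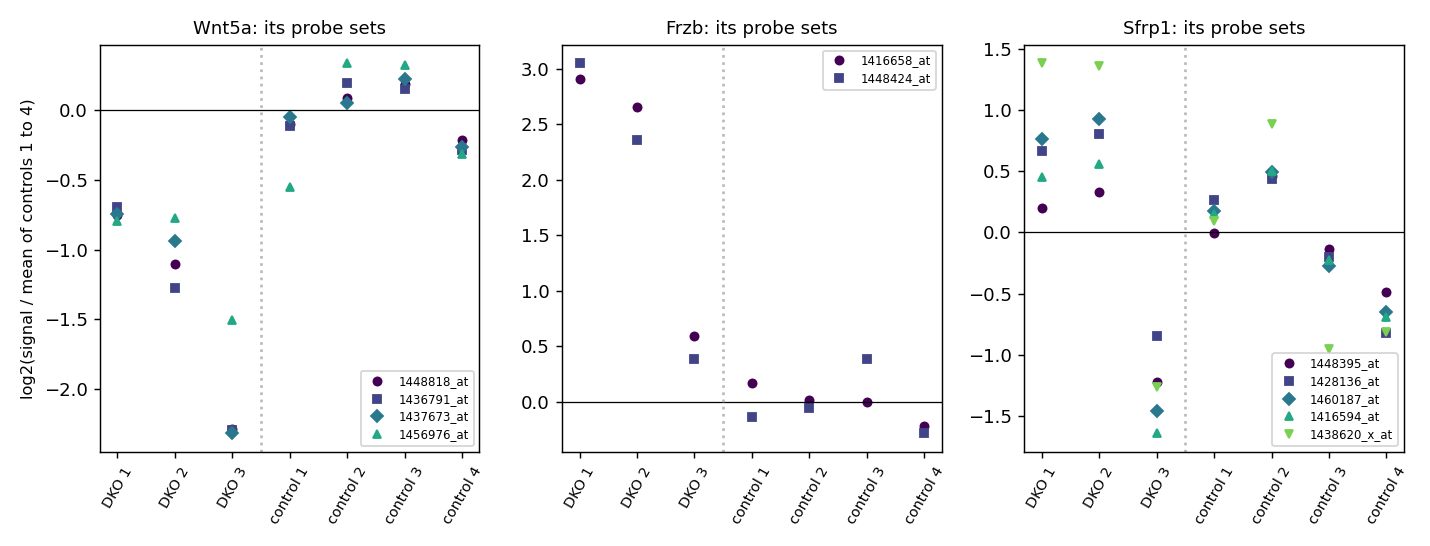
Probe sets of Wnt5a, Frzb and Sfrp1 on the DKO arrays and controls 1 to 4, each as log2 of the signal over that probe set's mean in controls 1 to 4; each marker shape is a probe set. The 4 Wnt5a probe sets lie under 0 on all DKO arrays, both Frzb probe sets are near 3 on DKO 1 (signals 944 and 696) and lower on DKO 3 (189.9 and 109.5), and the 5 Sfrp1 probe sets are above 0 on DKO 1 and 2 and under 0 on DKO 3.

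The remaining antagonists were not called in DKO. Sfrp1 read 1245, 1364 and 464 in DKO, and 1079, 1496, 984 and 772 in controls 1 to 4. The first 2 DKO arrays lay within the controls and DKO 3 under them, with a difference of -0.19 (SE 0.33, limma adjusted p = 0.848). Sfrp1 has 5 probe sets, all of which overlapped between DKO and controls 1 to 4. On each of the other 4 probe sets DKO 1 and DKO 2 exceeded the mean of controls 1 to 4 and DKO 3 was the lowest array of the first set, and without DKO 3 the tested probe set changed sign, to 0.31. Sfrp2, another Frizzled-related protein, read 259.8, 838 and 259.6 in DKO. Controls 1 to 4 read 1475, 1314, 3305 and 62.4, a range that contained all DKO arrays, and the difference was -1.06 (SE 1.24, adjusted p = 0.741). Dkk3, a divergent member of the Dickkopf family, read 1613, 1204 and 1211 in DKO, and 1821, 1606, 1271 and 1417 in controls 1 to 4. These overlapped, at a difference of -0.19 (SE 0.14, adjusted p = 0.547). Wif1, which binds Wnt ligands through its own WIF domain, was near the bottom of the scale on 18 of the 19 arrays. It read 5.17, 1.71 and 60.7 in DKO and 0.488 to 7.93 in controls 1 to 4, and it reached at most 15.2 on any array but DKO 3. Tested without the filter on low signals, its difference in DKO was 1.10 (SE 0.56, adjusted p = 0.381).

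Rspo1, a ligand of the Lgr receptors, read 543, 593 and 771 in DKO. Controls 1 to 4 read 364, 409, 439 and 562, so that only DKO 1 fell within the controls. The difference was 0.51 (SE 0.20) and was not called (limma adjusted p = 0.201). Apart from Frzb, 2 of the 8 tested genes did not overlap between DKO and controls 1 to 4 (Wnt5a and Wnt6, both lower), where 13.2% of all genes tested did not.

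**Figure D3:**
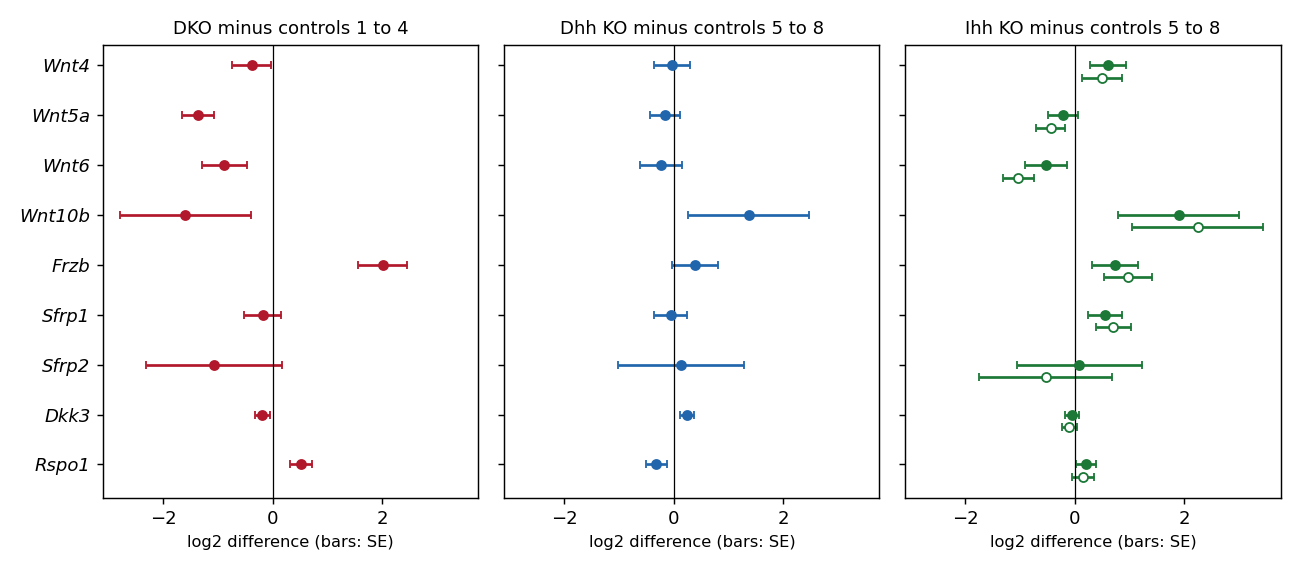
Log2 difference of the 9 tested genes between each knockout and the controls of its hybridization set, with standard errors as bars; open circles leave out the array labelled Ihh KO 4. In DKO Wnt5a lies at -1.36 and Frzb at 2.00, and Wnt10b and Sfrp2 have the widest bars in all panels.

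Markers of several cell types moved in DKO with these genes. Of 6 tested theca markers 3 were called lower (Star, Cyp11a1 and Fdx1), where 3.02% of all genes tested were called in DKO. The 6 theca markers summed to 21712 to 30884 in DKO and 41876 to 56032 in controls 1 to 4. Cyp11a1 is also 1 of 4 tested corpus luteum markers, of which 1 was called lower (sums 1746 to 10206 in DKO, 6006 to 23044 in controls 1 to 4). Stromal fibroblast markers were called lower for 2 of 9 (Tcf21 and Mfap5; sums 21115 to 32383 in DKO, 28012 to 44578 in controls 1 to 4), smooth muscle markers for 4 of 8 (5238 to 12204 in DKO, 14240.0 to 19064 in controls 1 to 4) and endothelial markers for 2 of 7 (2528 to 3789.5 in DKO, 4016 to 5286 in controls 1 to 4). Surface epithelium markers were called higher for 2 of 9 (Krt8 and Krt18; 9171 to 12115 in DKO, 5970.0 to 8022 in controls 1 to 4). Oviduct epithelium markers were called higher for 5 of 6 (Plet1, Wfdc2, Cdh1, Epcam and Cldn3). Their sums were 8519, 2183 and 14011 in DKO and 844 to 1574 in controls 1 to 4. Ovgp1, the defining secreted protein of the oviduct, read 3730, 53.6 and 4679 in DKO and 26.0 to 409 in controls 1 to 4, so it was within the controls on DKO 2. On that array, where the oviduct sum of 2183 was still above all of controls 1 to 4, Frzb read 794 and Wnt5a read 891. Mast cell markers were called higher for 2 of 3 (Cma1 and Tpsb2; sums 3769, 1517 and 660.1 in DKO, 319 to 837 in controls 1 to 4), and adipocyte markers for 0 of 2 (2020.0, 86.9 and 3974 in DKO, 64.6 to 785 in controls 1 to 4). No marker was at 0 on any array. The part of these cell types in the values of Wnt5a and Frzb was not tested. In RNA of whole ovaries, fewer cells of a type and less RNA per cell cannot be told apart.

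Genes whose pattern was most like that of Wnt5a and of Frzb were sought over all 19 arrays, on log2 values minus the mean of the controls of the same set. For Wnt5a these were Grb10 (r = 0.94, or 0.95 without Ihh KO 4), an adaptor of growth factor receptors, Nr2f2 (r = 0.92 with and without it), a nuclear receptor of stromal cells, and Cnrip1 (r = 0.91 with and without it). Grb10 was lower in DKO (634 to 1295, against 1846 to 2243 on controls 1 to 4; log2 difference -1.05, limma adjusted p = 0.00339), as was Nr2f2 (2660.4 to 3662, against 5175 to 5882; -0.78, adjusted p = 0.00163). Most like Frzb were Cma1 (r = 0.84), a mast cell chymase, Fzd6 (r = 0.83), a Frizzled receptor, and Lrp11 (r = 0.83). These values were the same to this precision without Ihh KO 4. Frzb was selected on its rise in DKO, and the DKO arrays enter r, so r for Frzb is not independent of that selection. Cma1 read 1429, 530.0 and 144 in DKO, the same order of arrays as Frzb, and 36.3 to 81.9 in controls 1 to 4. On Ihh KO 1 to 3 the order of arrays differed: Cma1 read 434, 524 and 198, and Frzb read 117, 199 and 323. The arrays of a group share their hybridization set, and these genes have the 3 highest r for Wnt5a and for Frzb, so r carries no p. They were sought among 12379 genes, with genes known by a Gm, Rik or clone number skipped.

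Dhh loss alone left these genes without a call. In Dhh KO 0 of the 9 were called, where 0% of all genes were called, and 0 of the 9 and 10.1% of all genes had an unadjusted p under 0.05 (limma). Their median difference was -0.04, against -0.03 for all genes. Dhh itself, the deleted gene, was not called here either, at -5.37 (SE 0.91, limma adjusted p = 0.119). The absence of calls therefore says little about these genes. Wnt5a read 2154, 1807, 2303 and 1497 in Dhh KO, and 2135, 2192, 2431 and 1834 in controls 5 to 8. These overlapped, and the difference was -0.16 (SE 0.27, adjusted p = 0.882). Frzb read 135, 115, 104 and 168 in Dhh KO, and 119, 89.8, 142 and 56.4 in controls 5 to 8. It also overlapped, at a difference of 0.38 (SE 0.42, adjusted p = 0.799). Dkk3 was the 1 gene of the 9 whose groups did not overlap, where 5.46% of all genes did not, with 1836, 2219, 1865 and 1884 in Dhh KO and 1728, 1776, 1352 and 1782 in controls 5 to 8. Its difference was 0.24 (SE 0.13, adjusted p = 0.544), and its other probe set overlapped (605 to 801 in Dhh KO, 563 to 876 in controls 5 to 8). Rspo1 read 349.6, 289, 361 and 292 in Dhh KO, and 381, 359, 402 and 477 in controls 5 to 8. Its difference was -0.32 (SE 0.19, adjusted p = 0.585), opposite in sign to that in DKO.

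Ihh loss alone gave no call among these genes either. In Ihh KO 0 of the 9 were called, with 0.0162% of all genes called, and without the array labelled Ihh KO 4 it was again 0 of 9, with 0.388% called. At an unadjusted p under 0.05 (limma) there were 0 of these genes with that array, where 14% of all genes were, and 3 of 9 without it, where 16% were. With that array Ihh itself, the deleted gene, was not called, at -2.18 (SE 0.40, limma adjusted p = 0.0977). The absence of calls there says little about these genes. Wnt5a read 1258, 1934, 1586 and 2988 in Ihh KO, and 2135, 2192, 2431 and 1834 in controls 5 to 8. The array labelled Ihh KO 4 was the highest of all and Ihh KO 1 and 3 were under every control. The difference was -0.21 (SE 0.27, adjusted p = 0.753), and without Ihh KO 4 it was -0.44 (SE 0.26, adjusted p = 0.419).

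Wnt6 showed the same kind of spread in Ihh KO. It read 120.5, 199, 257 and 747 in Ihh KO, and 245, 339, 536 and 481 in controls 5 to 8. The difference was -0.53 (SE 0.38, limma adjusted p = 0.553) over all arrays and -1.03 (SE 0.29, adjusted p = 0.105) without Ihh KO 4. On its other probe set Ihh KO 1 to 3 read 145, 108 and 133, under all of controls 5 to 8 (223, 296, 353 and 235), while Ihh KO 4 read 331. Surface epithelium markers summed to 11729 on Ihh KO 4, against 6461 to 8465 on Ihh KO 1 to 3 and 5799.6 to 8097 on controls 5 to 8, and their part in the Wnt6 signal was not tested.

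Frzb read 117, 199, 323 and 96.0 in Ihh KO, and 119, 89.8, 142 and 56.4 in controls 5 to 8. Ihh KO 2 and 3 lay above the controls and the other arrays within them. The difference was 0.73 (SE 0.42, limma adjusted p = 0.449), and 0.97 (SE 0.44, adjusted p = 0.287) without Ihh KO 4. Sfrp1 read 2174, 2028, 1136 and 1113 in Ihh KO, and 1056, 1417, 938 and 860.4 in controls 5 to 8. Its first 2 arrays exceeded every control, with a difference of 0.55 (SE 0.31, adjusted p = 0.435), or 0.70 (SE 0.32, adjusted p = 0.296) without Ihh KO 4. On 1 of the other probe sets of Sfrp1, all of Ihh KO 1 to 3 (1759, 1304 and 768) lay above controls 5 to 8 (433 to 732). Among the tested probe sets of the 9 genes, however, none was without overlap between Ihh KO and controls 5 to 8, where 6.28% of all genes were, and none without Ihh KO 4, where 12.7% were. Wnt4 read 936, 1068, 913 and 1287 in Ihh KO, and 787, 1066, 613 and 428 in controls 5 to 8, at a difference of 0.60 (SE 0.33, adjusted p = 0.429), or 0.50 (adjusted p = 0.515) without Ihh KO 4.

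Wnt10b and Sfrp2 had the largest standard errors of the 9 genes in every comparison with controls. Wnt10b read 155, 429, 209 and 190.2 in Dhh KO, 537, 322, 436 and 157 in Ihh KO, and 42.3, 559, 223 and 3.58 in controls 5 to 8. Its difference was 1.36 (SE 1.10, limma adjusted p = 0.713) in Dhh KO, 1.89 (SE 1.10, adjusted p = 0.450) in Ihh KO, and 2.24 (SE 1.20, adjusted p = 0.374) in Ihh KO without array 4. Sfrp2 read 277, 918, 1529 and 1327 in Dhh KO, 461, 559.6, 584 and 2974 in Ihh KO, and 1781, 1388, 2615 and 49.5 in controls 5 to 8. The difference of Sfrp2 was 0.14 (SE 1.15, adjusted p = 0.979) in Dhh KO and 0.08 (SE 1.15, adjusted p = 0.981) in Ihh KO, and it changed sign, to -0.53, without Ihh KO 4.

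The arrays where Wnt10b was near the bottom of the scale, DKO 3, control 4 and control 8, were those with the lowest summed signal of 4 corpus luteum markers (Ptgfr, Akr1c18, Parm1 and Cyp11a1). The sum was 1746 on DKO 3, with 8350.4 and 10206 on the other DKO arrays. It was 6006 on control 4, with 13299 to 23044 on controls 1 to 3, and 5269 on control 8, with 10363 to 19351 on controls 5 to 7. In Ihh KO it was 19542, 24605, 25721 and 12327, and Ihh KO 4 had the lowest sum of that group and its lowest Wnt10b signal. Sfrp2 was lowest on control 4 (62.4) and control 8 (49.5), but on DKO 3, with the lowest sum of all, it read 259.6, close to the 259.8 of DKO 1. The sum includes Cyp11a1, also a theca marker and called lower in DKO. Akr1c18 alone read 157 on DKO 3, above 44.0 on control 4 and 74.6 on control 8. Ptgfr read 55.5 on DKO 3, 66.9 on control 4 and 110 on control 8. Controls 4 and 8 deviated from their group means together (r = 0.771 across genes). They may therefore not be separate observations, and the labels do not say. The part of luteal tissue in these values was not tested.

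**Figure D4:**
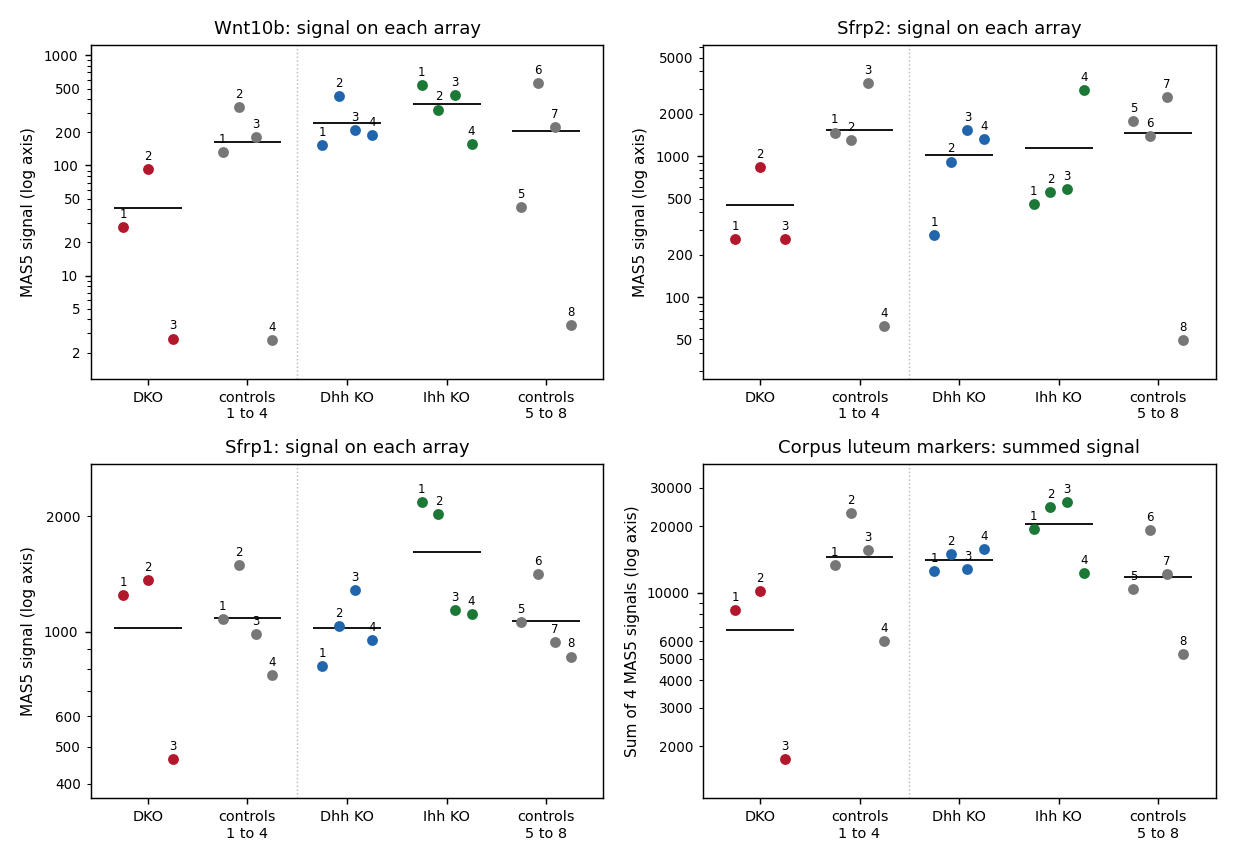
Signal of Wnt10b, Sfrp2 and Sfrp1, and the summed signal of 4 corpus luteum markers, on each of the 19 arrays, on log axes; each point is an array with its number, horizontal lines are group means, and the dotted line parts the hybridization sets. Wnt10b is lowest on DKO 3 (2.68), control 4 (2.60) and control 8 (3.58), which also have the lowest luteal sums (1746, 6006 and 5269). Control 4 and control 8 deviated together and may not be separate observations.

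Whether the change in DKO differed from that in a single knockout was tested for each gene other than Frzb, each change being against the controls of its own set. Against the Ihh KO change 0 of these genes were called, where 0.396% of all genes were, or 0.275% without Ihh KO 4. Against the Dhh KO change it was again 0, where 0.606% of all genes were. At an unadjusted p under 0.05 (limma) there were 2 of these 8 genes against Ihh KO, where 17.4% of all genes were, and 3 against Dhh KO, where 16.1% were. For Wnt5a the difference of changes was -1.15 (SE 0.40, limma adjusted p = 0.157) against Ihh KO, -0.92 (SE 0.37, adjusted p = 0.214) against Ihh KO without array 4, and -1.20 (SE 0.40, adjusted p = 0.145) against Dhh KO. For Rspo1 it was 0.31 (SE 0.28, adjusted p = 0.582) against Ihh KO and 0.83 (SE 0.28, adjusted p = 0.146) against Dhh KO. When a correlation among matched controls was estimated, Wnt5a passed the threshold in both (adjusted p = 0.0435 and 0.0363) and Rspo1 against Dhh KO (adjusted p = 0.0378). The Frzb change in DKO exceeded that in Ihh KO by 1.28 (SE 0.62), that in Ihh KO without array 4 by 1.03 (SE 0.62), and that in Dhh KO by 1.62 (SE 0.62), without a test. Same-numbered arrays of DKO and Dhh KO correlated at 0.133 to 0.204, which does not establish them as pairs. A further fit took the replicate number as a block and all 8 controls under 1 group mean, with controls 5 to 8 each alone in a block. There the controls cancel, so DKO is set directly against Dhh KO, across the hybridization sets. That comparison called 4332 of 12379 genes. Among them were Wnt5a (-1.36, limma adjusted p = 0.00983), Rspo1 (1.00, adjusted p = 0.00181) and Wnt10b (-3.38, adjusted p = 0.00590).

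The rest of the Wnt pathway was read from lists of other ligands, other secreted modulators, receptors, transducers and target genes. Of 19 tested receptors and co-receptors, 2 were called higher in DKO, the Frizzled genes Fzd3 and Fzd6, and 0 lower, where 3.02% of all genes tested were called. Fzd6 read 1044, 921 and 863 in DKO and 635, 611, 473 and 507 in controls 1 to 4, without overlap. Its difference was 0.76 (SE 0.14, limma adjusted p = 0.00688). Fzd3 read 1263, 1454 and 1485 in DKO and 821, 714, 739 and 1173 in controls 1 to 4, also without overlap, at 0.72 (SE 0.19, adjusted p = 0.0441). The median difference of the receptors was 0.06, against 0.02 for all genes. In DKO 0 of 5 other Wnt ligands and 0 of 2 other secreted modulators were called, where 3.02% of all genes tested were. At the same share over all genes, 0 of 21 genes of Wnt secretion and intracellular signal transduction and 0 of 12 Wnt target genes were called. The medians were 0.29, 0.26, -0.01 and 0.07 in that order. Axin2, a feedback inhibitor induced by beta-catenin signalling and named after its values were seen, averaged 874 in DKO and 872 in controls 1 to 4 (difference 0.01, adjusted p = 0.988). In Dhh KO and in Ihh KO, with or without array 4, none of these list members was called.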

How the data were processed

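Values were deposited as 1 linear intensity per probe set and array, which the submitters' processing notes name as a MAS5 signal; the sources used here give neither its version nor the scanner settings. RNA was isolated with the PicoPure kit and amplified from 50 ng with the WT-Ovation Pico system, per the labels' protocols. The table held 45101 probe sets, of which 34945 had 1 gene in the platform annotation supplied, 932 several and 9224 none, the 64 Affymetrix controls included. By Entrez identifier 34741 matched the RefSeq table of GRCm38.p6, and 0 symbols changed.

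The members and gene lists were chosen with earlier results of these data known. No second normalization was applied. Log2(signal + 7.02, the 10th percentile of all signals) was fitted in R 4.3.3 with limma 3.58.1 (lmFit, eBayes with an intensity trend, two-sided) as 5 group means over 19 arrays: DKO, Dhh KO, Ihh KO, controls 1 to 4 and controls 5 to 8. Genes with a mean under the 40th percentile of all probe sets (6.26, a signal of 69.4) were not tested. The probe set of highest mean stood for each gene, and p-values were adjusted by Benjamini-Hochberg over 12379 genes at a threshold of 0.05. Precision is limited by the 3 or 4 arrays per group. Genes named beside the members are Dhh, Ihh and Hedgehog targets, called genes of the pathway lists, the 3 genes most like Wnt5a and Frzb, and called or defining cell type markers. The fit was tested on simulated data.

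The hybridization sets are read from the control probes; the labels do not mention them. The replicate numbers in the labels were checked as pairs by the deviations of arrays from their group means. Same-numbered arrays of DKO and Dhh KO correlated at 0.133 to 0.204, and differently numbered arrays of these groups at up to 0.0784. In other pairs of groups, differently numbered arrays reached 0.272 (Ihh KO 4 with DKO 3) and 0.350 (Dhh KO 3 with Ihh KO 4). These values therefore do not establish the numbers as pairs, and the labels do not give them as pairs. Same-numbered arrays of DKO and controls 1 to 4 correlated at 0.0743 to 0.274 and were not paired. Alternatives covered the normalization, pseudocount, filter, probe sets, controls, arrays in the fit, moderation, replicate block and each array left out. Figures used Python 3.11.15, numpy 2.4.6, pandas 2.3.3 and matplotlib 3.10.9.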

Additional observations from a re-analysis of the deposited data

Results flagged for a closer look

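In the groups of 4 arrays, 40 sets of values of the 10 genes were searched for an array far from the other 3, by the gap to its nearest neighbour as a share of the range, both taken on log2(signal + 7.02) (Dixon's test, 95% critical value). The readings below are signals, on which the gaps are not the same shares. Chance alone marks about 1 in 20 such sets, and 5 were marked. Sfrp2 on the array labelled Ihh KO 4 read 2974, with a gap of 0.874 of the range, above the 461 to 584 of Ihh KO 1 to 3. Sfrp2 on control 8 read 49.5 (gap 0.835), under the 1388 to 2615 of controls 5 to 7. Dkk3 on Dhh KO 2 read 2219 (gap 0.863), above 1836 to 1884 on the other Dhh KO arrays. Dkk3 on control 7 read 1352 (gap 0.888), under 1728 to 1782 on the other controls of its set. Wif1 on control 3 read 7.93 (gap 0.929), above 0.488 to 0.865 on the other controls of its set, all of these being signals far under the filter.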

How the results depend on the processing

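Groups held 3 or 4 arrays, and signals under about 69.4 were left out of the tests. The Wnt5a difference in DKO was negative under every alternative run (-1.67 to -0.91), but some of them lost its call. These were a fit of the first set alone (-1.36, limma adjusted p = 0.0964) and the fit without DKO 3 (-0.91, adjusted p = 0.0873). The replicate number as a block also lost it, over all arrays (-1.34, adjusted p = 0.0588) and within the first set (-1.43, adjusted p = 0.0746). Wnt6 in DKO was called in the first set alone (-0.88, adjusted p = 0.0492) and with the replicate block within it (-0.88, adjusted p = 0.0484). Frzb in DKO was 1.81 after quantile normalization, 2.18 against all 8 controls, and 1.58 to 2.72 with an array left out.

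The number of genes called in DKO (374) became 594 against all 8 controls and 79 in the first set alone, and 128 to 503 with an array left out (128 without DKO 3, 197 without control 3, 228 without DKO 2, 243 without control 1). In Dhh KO (0) it became 1 with a pseudocount at the 25th percentile, 19 against all 8 controls and 3689 with the replicate block, and 0 to 7 with an array left out (7 without control 8). In Ihh KO (2) it became 7 without the filter, 8 with every probe set, 0 with matched controls correlated, 0 with the second set alone, 1 without the intensity trend and 3345 with the replicate block, and 0 to 58 with an array left out (58 without control 8, 48 without Ihh KO 4). For the DKO change minus the Ihh KO change (49) it became 21 after quantile normalization, 87 with every probe set, 697 with matched controls correlated, 2562 against all 8 controls and 4041 with the replicate block, and 0 to 274 with an array left out (0 without DKO 3, 274 without control 4). For the DKO change minus the Dhh KO change (75) it became 39, 672, 3220 and 4332 under quantile normalization, matched controls correlated, all 8 controls and the replicate block, and 23 to 304 with an array left out (23 without DKO 3, 304 without control 4). Fits against all 8 controls, the replicate block over them included, do not keep the hybridization sets apart. In them the controls cancel from the DKO change minus a single knockout change, so DKO is set directly against arrays of the other set. The replicate block also sets Dhh KO and Ihh KO against controls 1 to 4, of the other set. What part this has in each shift, and the cause of the other shifts, was not tested.

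Signs turned for some differences, none of them called in the fit of 5 group means, where Wnt4 was -0.98 (SE 0.48) for the DKO minus the Ihh KO change and 0.60 (SE 0.33) in Ihh KO. Against all 8 controls Wnt4 was 0.21 in DKO, 0.20 for the DKO minus the Ihh KO change and 0.84 for the DKO minus the Dhh KO change, and Dkk3 was 0.0012 in Ihh KO. With the replicate block Wnt4 was -0.58 in Ihh KO, 0.15 for DKO minus Ihh KO and 0.79 for DKO minus Dhh KO, Wnt5a was 0.011 in Dhh KO, and Dkk3 was 0.062 in Ihh KO. After quantile normalization Wnt4 was 0.00067 in Dhh KO, and with the larger pseudocount Sfrp2 was -0.0025 in Ihh KO. With an array left out the ranges spanned 0 for Sfrp1 in DKO (-0.46 to 0.31) and Dhh KO (-0.18 to 0.085), Wnt4 in Dhh KO (-0.26 to 0.20), Sfrp2 in Dhh KO (-1.13 to 0.72) and Ihh KO (-1.18 to 0.67), and Dkk3 in Ihh KO (-0.15 to 0.00036). Beyond the calls given here and in the comparison with Dhh KO, the replicate block also called Wnt4 (-1.22, limma adjusted p = 0.00688) and Dkk3 (0.36, adjusted p = 0.0292) in Dhh KO. It called 3689 of all 12379 genes there. For DKO minus Ihh KO it called 4041 of 12379 genes. Among these were Wnt5a (-1.30, adjusted p = 0.0132) and Wnt10b (-3.91, adjusted p = 0.00317). In that block the Dhh KO values are against controls 1 to 4, and both comparisons run across the hybridization sets.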

Other observations

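Among the pathway genes that are not members, Sfrp4, a Frizzled-related protein, was chosen here after its values were seen. It read 6793, 7293 and 894 in DKO, and 8468, 9538, 6088 and 308 in controls 1 to 4. In the second set it read 5202 to 8681 in Dhh KO and 4164 to 10277 in Ihh KO, against 6297, 7045, 4825 and 532 in controls 5 to 8. Its 3 lowest arrays, control 4, control 8 and DKO 3, are the 3 on which Wnt10b was lowest. Sfrp4 did not differ by genotype beyond this spread in the test: its difference was 0.01 in DKO (limma adjusted p = 0.997), 1.02 in Dhh KO (adjusted p = 0.759) and 1.25 in Ihh KO (adjusted p = 0.577).

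Notum, a secreted enzyme that inactivates Wnt ligands, had signals too low to pass the filter. Chosen after its values were seen, it read 43.1, 65.5 and 85.5 in DKO, above the 17.5, 37.9, 3.91 and 18.5 of controls 1 to 4, though controls 5 to 8 reached 53.5.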
